A study of Mus musculus with 21 samples.

Results

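The loci of 4 mouse genes that hold embryonic cells in the pluripotent state, Nanog, Pou5f1, Sox2 and Klf4, were examined in the DNA that stayed in nucleosomes in sperm. The members are all CpGs listed in 4 windows fixed by coordinates on the mm9 build: chr6:122652000-122664999 (Nanog), chr17:35640000-35647999 (Pou5f1), chr3:34545000-34552999 (Sox2) and chr4:55538000-55547999 (Klf4). The windows hold 913 of the 15544856 CpGs in the deposited table, with 3778 of its 60995624 CpG reads, in 78 bins of 500 bp. The measurement was made in swim-up sperm of C57BL/6 mice (C57BL/6J in the protocol), with no treatment or mutation named; how many animals were pooled is not given in the sources used here. Mononucleosomes were released with micrococcal nuclease (MNase), which cuts the DNA between nucleosomes, and the recovered DNA was bisulfite converted, so that unmethylated cytosine is read as thymine. The series has 21 samples of sperm and round spermatids, of which this library is analysed here and the other 20 were not analysed here. There was 1 library, so no value below has a replicate and no test between groups was made.

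Pou5f1 encodes OCT4, a POU-domain factor that binds DNA beside its partner SOX2, an HMG-box factor. NANOG, a homeodomain protein, and KLF4, a zinc-finger protein of the Krüppel-like family, act in the same network in the inner cell mass of the blastocyst and in embryonic stem cells. Pou5f1, Sox2 and Klf4 belong to the set of genes used to reprogramme somatic cells. In mature sperm, which transcribe little or nothing, most histones have been replaced by protamines, and the DNA that keeps nucleosomes is only a part of the genome. The methylation of these genes in sperm is the paternal starting state from which the embryo begins.

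Their promoters differ first in sequence. The 250 bases before the first annotated start site of each gene follow here, 5′ to 3′ on the strand of the gene, with every CpG in capitals, since CpGs are what the library reads. The sequences are from RefSeq on GRCm38.p6. They were located in the table by the spacing of their CpGs and not by coordinates: inside each window, the placement given here held more of the sequence's CpGs at listed positions than any other placement did. For Nanog this rests on 4 CpGs in the 300 bases read, and its positions relative to the start site are the least certain.

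Sox2, chr3:34548667-34548916 on the table, + strand: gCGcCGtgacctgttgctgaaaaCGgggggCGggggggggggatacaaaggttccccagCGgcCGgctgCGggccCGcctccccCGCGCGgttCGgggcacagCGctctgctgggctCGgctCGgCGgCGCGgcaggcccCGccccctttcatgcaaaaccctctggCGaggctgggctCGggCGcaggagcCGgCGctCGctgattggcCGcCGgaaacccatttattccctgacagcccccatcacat
Klf4, chr4:55545348-55545597 on the table, - strand: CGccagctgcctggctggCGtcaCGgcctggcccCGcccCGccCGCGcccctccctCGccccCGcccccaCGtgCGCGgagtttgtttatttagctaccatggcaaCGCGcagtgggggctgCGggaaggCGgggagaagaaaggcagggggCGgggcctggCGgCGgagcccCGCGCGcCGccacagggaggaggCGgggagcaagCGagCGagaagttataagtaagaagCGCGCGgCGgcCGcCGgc
Pou5f1, chr17:35642727-35642976 on the table, + strand: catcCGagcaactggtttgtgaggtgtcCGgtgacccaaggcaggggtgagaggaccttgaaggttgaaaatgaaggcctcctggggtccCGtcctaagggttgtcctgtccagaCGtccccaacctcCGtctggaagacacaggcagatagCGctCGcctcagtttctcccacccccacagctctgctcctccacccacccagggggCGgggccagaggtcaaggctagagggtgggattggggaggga
Nanog, chr6:122657257-122657506 on the table, + strand: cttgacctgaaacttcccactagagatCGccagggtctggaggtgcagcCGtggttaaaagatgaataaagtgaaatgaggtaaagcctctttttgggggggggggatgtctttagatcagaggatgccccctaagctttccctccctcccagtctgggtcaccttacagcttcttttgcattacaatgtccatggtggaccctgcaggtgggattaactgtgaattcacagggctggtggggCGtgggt

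These 250 bases hold 32 CpGs at Klf4, 27 at Sox2, 8 at Pou5f1 and 3 at Nanog, against a median of 6 over the 32851 promoter sequences of the RefSeq table. The motif GGGCGG, the core of the GC box that SP and KLF factors bind, was searched on both strands (CCGCCC on the other), and matches may overlap. It occurred 4 times at Klf4, 2 times at Sox2, 1 time at Pou5f1 and 0 times at Nanog, and 32.7% of all promoters held it. The motif TTTGCAT, the core of the octamer bound by OCT4 (ATGCAAA on the other strand), occurred 1 time each at Nanog and Sox2 and 0 times at the others, and 4.12% of all promoters held it. A match is a description of the letters and does not show that a factor binds there.

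By pooled level, the 4 loci fell into a lower and a higher pair. Reads were pooled over all listed CpGs of a window, and the level is the percentage of these reads that were methylated. Sox2 had the lowest level, 4.48% (66 of 1473 reads, 95% Wilson interval 3.54 to 5.66), and Klf4 followed at 14.9% (213 of 1428 reads, 13.2 to 16.9). Pou5f1 had 56.0% (270 of 482 reads, 51.6 to 60.4) and Nanog 67.6% (267 of 395 reads, 62.8 to 72.0). The pooled level of all autosomal CpGs was 69.9%. Without CpGs of more than 19 reads, of which the 4 windows hold none, the autosomal level was 73.9%. The intervals of the 4 windows did not overlap. They treat all CpG reads as independent, which reads that span several CpGs and PCR copies are not, so they cover counting error at most and are too narrow.

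The order of these levels followed the order of CpG content. Sox2 had 39.4 listed CpGs per kb, Klf4 33.0, Pou5f1 15.6 and Nanog 11. Each window was therefore set beside all autosomal windows of its own length whose number of listed CpGs was within 10% of its own. Among 242 such windows the median level was 7.83%, and Sox2 lay at the 12.4th percentile. Klf4 lay at the 67.1st percentile of 346 windows with a median of 11.8%, Pou5f1 at the 41.8th of 8074 windows with a median of 68.3%, and Nanog at the 21.5th of 15264 windows with a median of 84.6%. All 4 levels were thus inside the central 90% of windows of like CpG number, which ran from 3.65% to 18.4% for Sox2 and from 32.7% to 94.96% for Nanog.

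Within the windows the level changed over short distances. Of the 78 bins, 57 had at least 10 reads and are described by level. Of these 57 bins, 22 were low (under 20%), where 3.82% of the 1640077 other autosomal bins with 10 reads were low. High bins (over 80%) numbered 15, where 73.8% of the other autosomal bins were high. Low bins were mainly CpG-dense ones: among bins of 20 or more listed CpGs, 13 of the 14 member bins were low, and so were 85.9% of the other autosomal bins of that kind. The 22 low bins were 12 of 13 at Sox2, 8 of 14 at Klf4, 1 of 14 at Pou5f1 and 1 of 16 at Nanog. If each bin had the share of low bins found at its own CpG number, the sums would be 6.97 at Sox2, 6.69 at Klf4, 0.666 at Pou5f1 and 0.430 at Nanog. The 15 high bins were 9 at Nanog, 3 at Pou5f1, 3 at Klf4 and 0 at Sox2. The like sums for high bins would be 11.9, 9.95, 5.11 and 3.62.

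**Figure D1:**
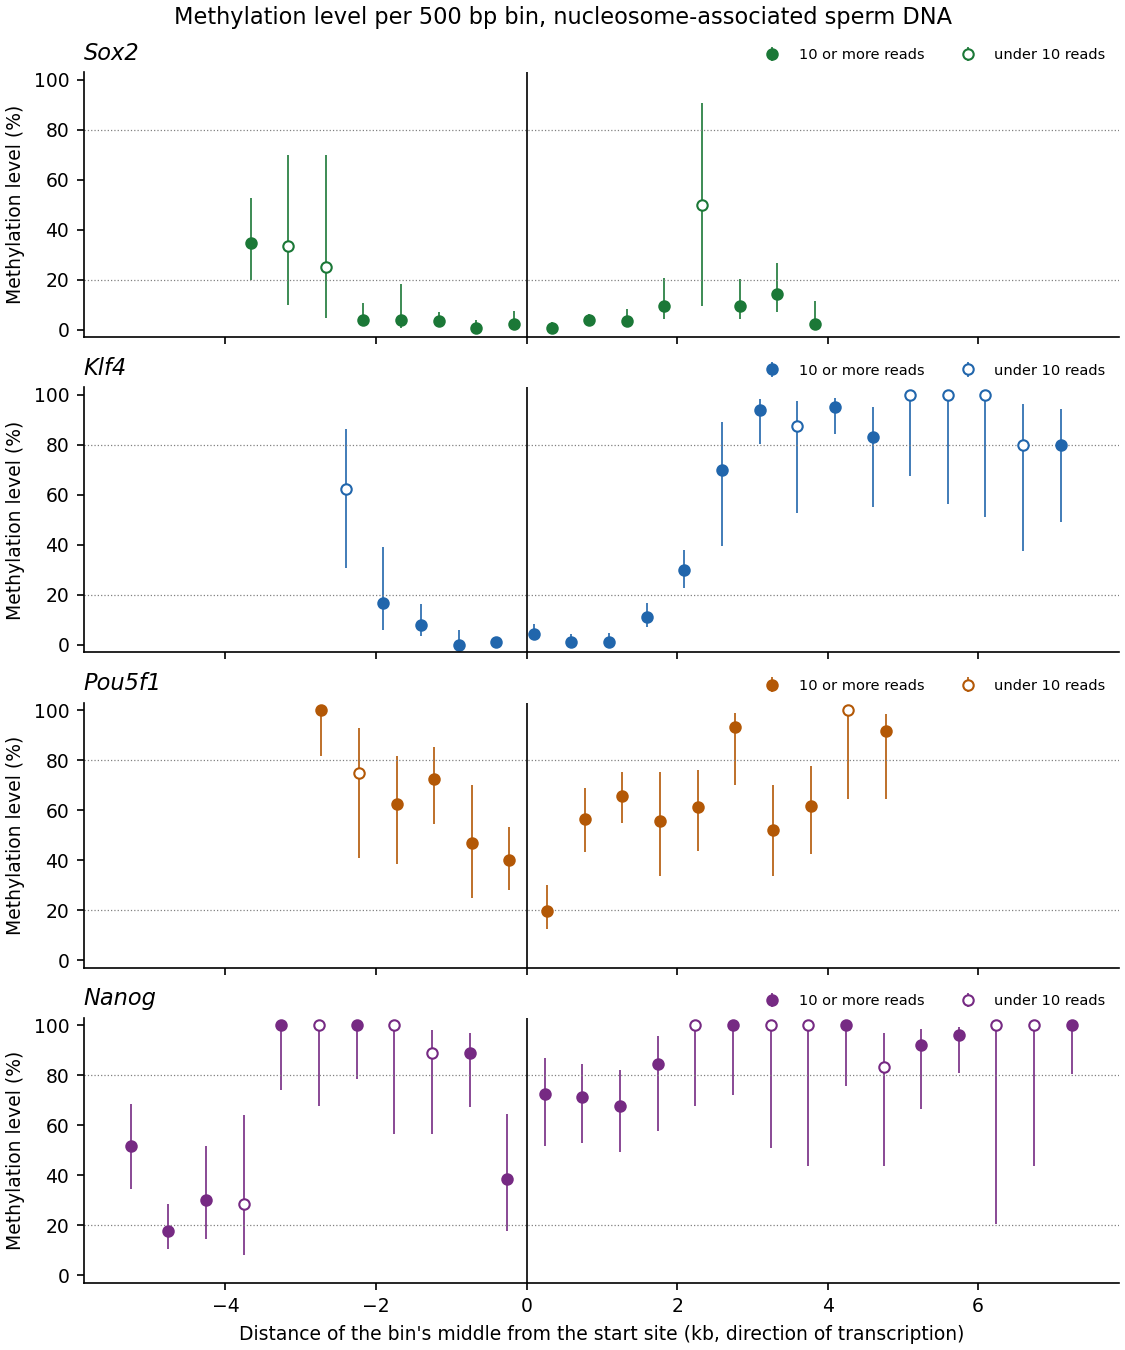
Methylation level (%) of each 500 bp bin against the distance of its middle from the start site (kb, in the direction of transcription), 1 panel per gene. Points are pooled levels, bars their 95% Wilson intervals, open points bins with under 10 reads, dotted lines 20% and 80%. Sox2 and Klf4 show broad unmethylated floors around the start site, Pou5f1 a shallow dip to 19.7%, and Nanog a dip far upstream and a bin of 38.5% just before the start site.

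**Figure D2:**
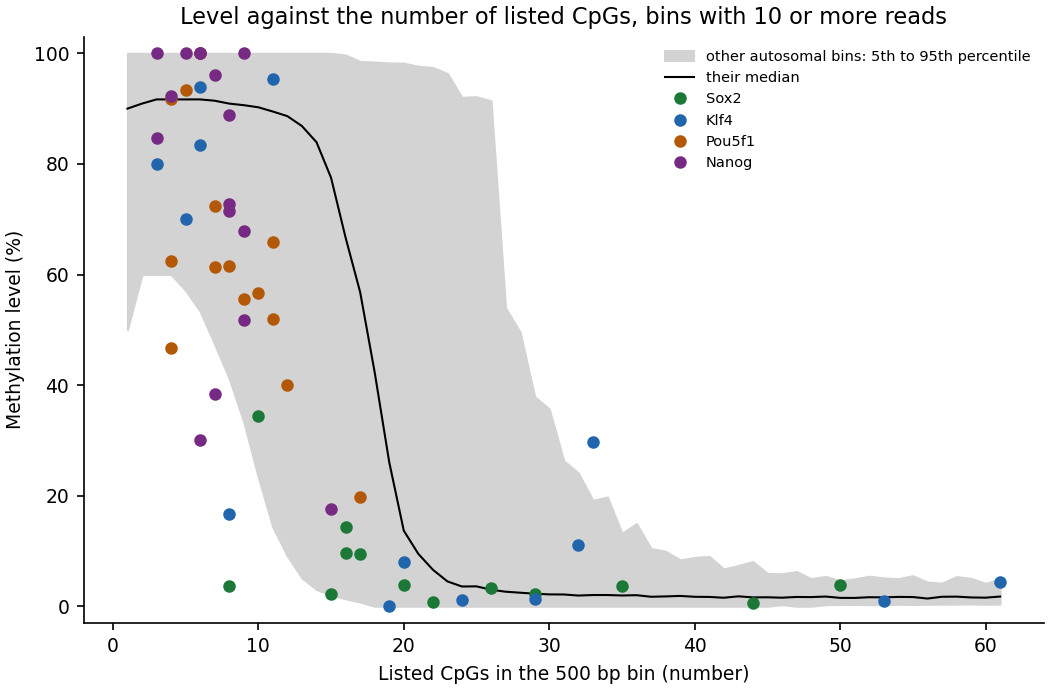
Methylation level (%) of the 57 member bins with 10 or more reads against their number of listed CpGs. The black line is the median and the grey band the 5th to 95th percentile of other autosomal bins with the same number. Most member bins of under 20 CpGs lie below the line, and the Klf4 bin of 33 CpGs lies above the band.

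Sox2 was unmethylated over nearly the whole window. A run of 9 consecutive low bins covered 4500 bp from position -2417 to 2082 relative to the start site (chr3:34546500-34550999). In it, 39 of 1285 reads over 250 listed CpGs were methylated, a level of 3.04% (2.23 to 4.12). Runs of at least 9 low bins made up 1.43% of the 23581 autosomal runs of low bins, whose median length was 2 bins. The bin that holds the start site had 2 methylated of 92 reads (2.17%), and the lowest bin of the window, next to it downstream, had 1 of 186 reads (0.538%). The bin of most CpGs, centred at 833, had 50 listed CpGs and 14 methylated of 373 reads (3.75%). A bin with 2 reads separated this run from a second of 3 low bins, which had 8.84% (5.24 to 14.5) and reached the end of the window.

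The upstream edge of the Sox2 window was partly methylated, although the level stayed far below the autosomal average. The first bin had 10 methylated of 29 reads (34.5%, 19.9 to 52.7), and the first 3 bins together 13 of 39 reads (33.3%, 20.6 to 49.0). Beyond the window, the 10 kb on either side were also mostly unmethylated, with 12.8% (10.8 to 15.2) before it and 15.2% (12.9 to 17.9) after it. In the window, 146 CpGs had 5 or more reads: 135 of them were below 20%, 11 between 20% and 80%, and 0 above 80%. Sox2 lies inside the long noncoding gene Sox2ot in the RefSeq annotation of GRCm38.p6, used here for names alone, and its coding neighbours are Dnajc19 and Atp11b.

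At the Sox2 promoter, 25 of the 27 CpGs of the 300-base sequence (250 bases before and 50 after the start site) were listed, with 1 to 5 reads each. They had 2 methylated of 78 reads, a level of 2.56% (0.706 to 8.88), and 23 of the 25 CpGs had no methylated read. The methylated reads were at positions -55 and -37, with 1 of 4 and 1 of 2 reads. Its 6 CpGs with 5 or more reads had 0 methylated of 30 reads. Both GGGCGG matches, at -223 to -218 and -111 to -106, hold a CpG, with 1 and 3 reads, of which 0 were methylated. The octamer core at -99 to -93 holds no CpG.

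Klf4 had an unmethylated core with methylated DNA downstream. A run of 8 low bins covered 4000 bp from position -2152 to 1847 (chr4:55543500-55547499), with 44 of 1151 reads methylated over 246 listed CpGs, a level of 3.82% (2.86 to 5.09). Runs of at least 8 low bins made up 2.16% of the autosomal runs. The lowest bin, centred at -903, had 0 methylated of 59 reads (0%, up to 6.11%), and the bin that holds the start site had 61 listed CpGs, the most of any member bin, with 9 of 202 reads methylated (4.46%). Downstream, the 9 bins from 2848 to the window's end had 118 of 128 reads methylated (92.2%, 86.2 to 95.7). The 10 kb beyond the window were methylated on both sides, at 94.6% (91.6 to 96.5) upstream of the gene and 82.0% (77.7 to 85.7) downstream of it.

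The downstream edge of this core had higher levels than most bins of its CpG number. The bin centred at 2097 had 33 listed CpGs and 39 methylated of 131 reads, a level of 29.8% (22.6 to 38.1). Other autosomal bins with 33 listed CpGs had a median of 2.0%, and 95.1% of them were low; the Klf4 bin lay at their 96.4th percentile. It was the 1 member bin of 20 or more CpGs that was not low. The next bin towards the start site, of 32 CpGs, had 19 of 172 reads methylated (11.05%, 7.19 to 16.6) and lay at the 92.0th percentile of its CpG number. Over both bins the level was 19.1% (15.1 to 23.9). Single CpGs varied: among those of the bin centred at 2097 with 5 or more reads, levels ran from 0 of 5 reads at 1953 to 4 of 5 at 2147. The CpGs with the most reads of both bins, 11 or 12 each, had 4 methylated reads at 1739, 1 at 1736, 2 at 1725, 5 at 1719 and 0 at 1712.

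At the Klf4 promoter 33 of 40 CpGs of the 300 bases were listed, with 1 to 6 reads, and 8 of 94 reads were methylated (8.51%, 4.38 to 15.9). The 8 methylated reads all lay between positions -18 and 25, 1 at each of 8 CpGs, while the 19 listed CpGs further upstream had none. The 5 CpGs from -18 to -7 with a methylated read had 1 of 2 reads methylated each; the table does not link the reads of neighbouring CpGs. With CpGs of 5 or more reads alone, the Klf4 promoter level was 3.92%. The 7 unlisted CpGs were consecutive, from -144 to -85, so this stretch of the promoter was not read at all. Of the 4 GGGCGG matches, the 3 at -217 to -184 had a CpG with 2 to 5 reads, of which 0 were methylated, and the CpG of the match at -101 to -96 is among the unlisted ones.

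**Figure D3:**
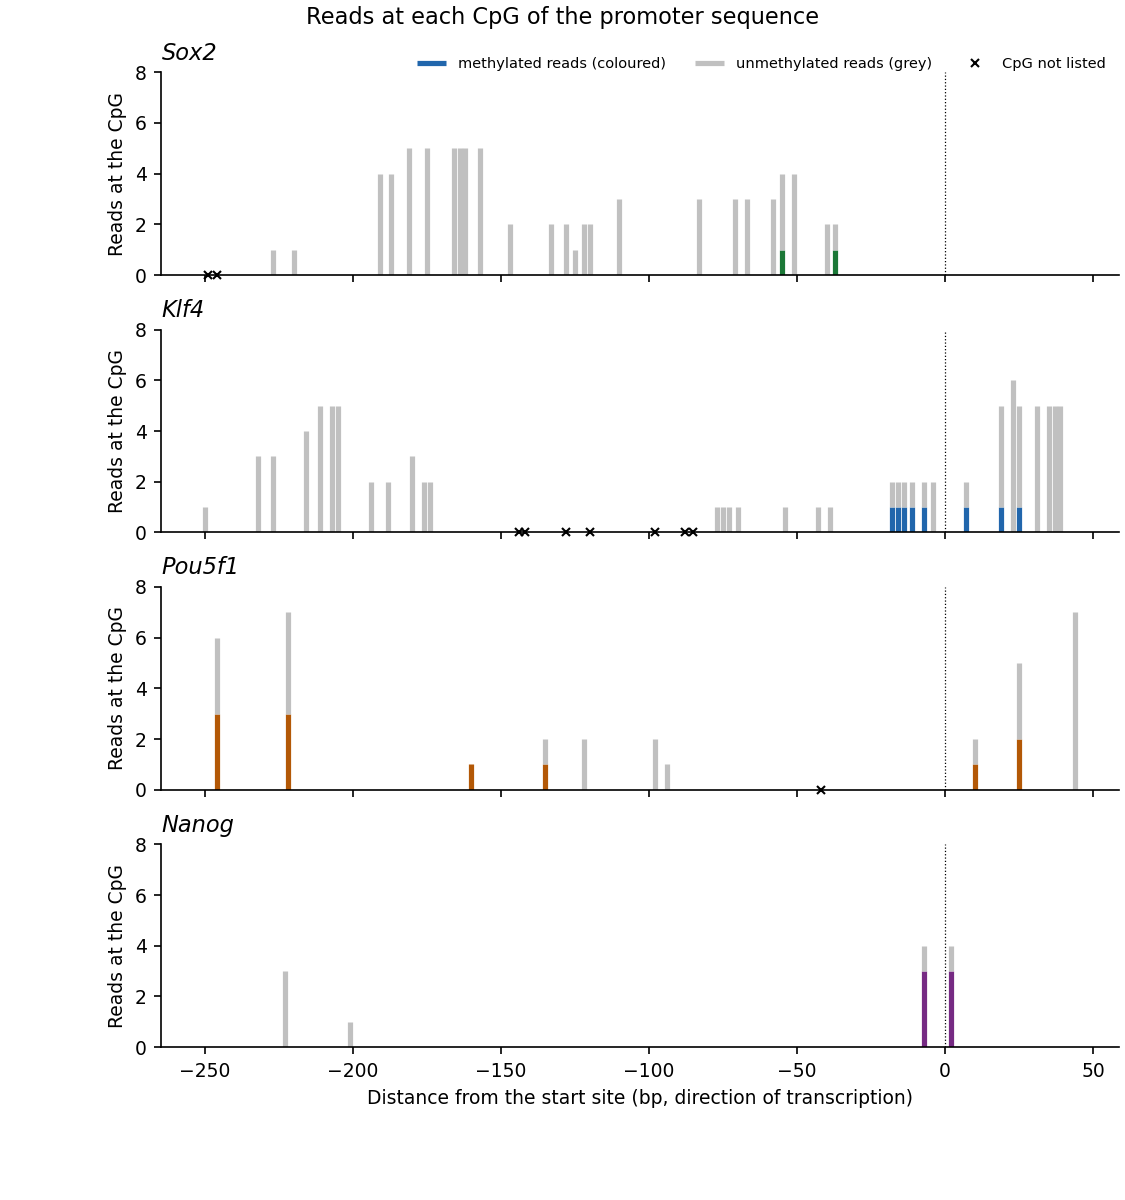
Reads at each CpG of the 300-base promoter sequences against its distance from the start site (bp, direction of transcription), 1 panel per gene. The coloured part of a bar counts methylated reads, the grey part unmethylated reads, and a cross marks a CpG of the sequence that the table does not list. Sox2 has 2 methylated reads in all, the methylated reads of Klf4 gather at the start site beside a gap of 7 unlisted CpGs, and Pou5f1 and Nanog have few CpGs, some methylated and some not.

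Pou5f1 was intermediate over most of its length, with a minimum just past the start site. The bin centred at 273 had 17 listed CpGs, the most of the window, and 15 methylated of 76 reads, a level of 19.7% (12.3 to 30.0). It lies just under the limit of 20% and its interval crosses it. The level of the 4 bins before it, from position -1977 to 22, was 52.2% (43.1 to 61.1, 115 reads), and that of the 4 bins after it, from 523 to 2522, was 61.3% (54.1 to 68.1, 181 reads). Both ends of the window were methylated, with 17 of 17 reads in the first bin (100%, 81.6 to 100) and 11 of 12 in the last (91.7%, 64.6 to 98.5). Of 14 bins with 10 reads, 10 were intermediate, 3 high and 1 low.

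Single CpGs of Pou5f1 were mixed as well. At a depth of 5 or more reads it had 44 CpGs, of which 31 lay between 20% and 80%, or 70.5%, where the share was 25.8% over all autosomal CpGs of that depth, 38.9% at Nanog (7 of 18), 14.2% at Klf4 and 7.53% at Sox2. With 5 reads a single methylated or unmethylated read already counts as intermediate, and the autosomal share was not restricted to bins of like level. The most read CpGs showed both states: those at positions 356 and 781, with 15 reads each, had 1 and 6 methylated reads, and that at -402 had 6 of 12. Reads are not linked to each other in the table, so a mixture of methylated and unmethylated molecules and of CpGs within a molecule cannot be told apart.

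The Pou5f1 promoter had 10 of its 11 CpGs listed in the 300 bases, and 11 of 35 reads were methylated (31.4%, 18.6 to 48.0). The upstream CpGs at -246 and -222 had 3 of 6 and 3 of 7 methylated reads, those at -122, -98 and -94 had 0 of 2, 0 of 2 and 0 of 1, and the CpG at 44 had 0 of 7. The CpG in the single GGGCGG match, at -45 to -40, was not listed. A second annotated start site, at chr17:35645752, matched the table with the same offset as the first (4 of 6 CpGs listed), and its CpGs had 12 of 12 reads methylated (100%, 75.8 to 100). The flanks of the window differed, with 76.2% (67.9 to 82.9) in the 10 kb before it, towards the coding neighbour H2-Q10, and 45.2% (41.3 to 49.3) in the 10 kb after it, towards Tcf19.

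Nanog was methylated downstream of its start site and had lower levels far upstream. The 4 bins from -5507 to -3508 had 35 of 124 reads methylated over 34 listed CpGs, a level of 28.2% (21.1 to 36.7). Among them was the only low bin of the locus, at chr6:122652500-122652999, with 12 of 68 reads methylated (17.6%, 10.4 to 28.4) and 15 listed CpGs, the most of the window. Its most read CpGs, at -4807 and -4786, had 1 of 11 and 1 of 9 methylated reads. The following 6 bins, from -3507 to -508, had 62 of 65 reads methylated (95.4%, 87.3 to 98.4). The boundary lay between the bin centred at -3757, with 2 of 7 reads methylated, and the bin centred at -3257, with 11 of 11. These stretches, like the others of several bins described here, were chosen after their values were seen.

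The Nanog start site was of mixed state at low depth. The last bin before it had 5 methylated of 13 reads (38.5%, 17.7 to 64.5). In it, the 4 CpGs from -355 to -201, picked because no read there was methylated, had 7 reads. All 5 methylated reads of the bin lay at its other CpGs. In the next bin, which holds the start site, the CpGs at -7 and 2 had 3 methylated of 4 reads each. All 4 CpGs of the 300-base promoter sequence were listed, and 6 of 12 reads were methylated (50%, 25.4 to 74.6). A second annotated Nanog start site did not support this placement: at the offset of the first, 2 of its 4 CpGs were listed, while another placement in the window matched 3. The position of the Nanog promoter thus rests on 4 CpGs. The octamer core, at -75 to -69, lies between the CpGs at -201 and -7 and holds no CpG. From the start site the level was 72.7% in the first bin, 71.4% in the second and 67.9% in the third, and the 12 bins beyond, from 1493 to 7492, had 110 of 115 reads methylated (95.7%, 90.2 to 98.1). Upstream of the start site the window as a whole had 51.0% (44.2 to 57.7) and downstream 85.7% (80.01 to 89.99); at Pou5f1 the levels were 59.4% and 54.7%, with overlapping intervals. The 10 kb flanks, towards Dppa3 and Slc2a3, had 74.5% and 73.3%.

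Each locus had 1 bin with a level at or under the 2.5th percentile of autosomal bins with its CpG number. These 4 of 57 bins compare with 2.4% of the other autosomal bins. They were the Sox2 bin centred at -1667, with 1 of 27 reads methylated over 8 CpGs (0.493rd percentile), the Nanog bin at -4257, with 6 of 20 over 6 CpGs (1.69th), the Klf4 bin at -1903, with 3 of 18 over 8 CpGs (1.78th), and the Pou5f1 bin at -727, with 7 of 15 over 4 CpGs (2.31st). All 4 lie upstream of the start site and hold 4 to 8 CpGs. Those of Sox2 and Klf4 belong to the low runs described above, and that of Nanog adjoins its low bin. Dense bins could hardly be called, so the low CpG number is not a result. At 18 to 45 listed CpGs, the 5th percentile of other autosomal bins was already 0%, and ties take the middle rank. The Klf4 bin with 0 of 59 reads methylated, of 19 CpGs, lay at the 3.77th percentile. At the other end, 0 of the 57 bins were among the highest 2.5% for their CpG number. Of the other bins 0.0794% were, a small share since all bins of level 100% are given the same middle rank.

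Promoter levels were then set beside those of other genes. Sequences of at least 8 CpGs could be located by their spacing alone, which leaves out Nanog and most CpG-poor promoters. Of 13759 such promoters of other genes with 10 reads, 89.7% were low, and so were 2 of the 3 members that qualify. Among promoters whose CpG number was within 10% of its own, Sox2 lay at the 72.2nd percentile (2006 promoters, median 1.33%). Pou5f1 lay at the 73.7th (1431 promoters, median 5.88%, 67.2% of them low). Klf4 lay at the 99.8th percentile of 1316 promoters, whose median was 1.47% and 95th percentile 4.82%. This position rests on the 8 methylated reads at its start site, and the other promoters were not recomputed with CpGs of 5 or more reads.

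From a list of 35 other genes taken as pluripotency genes by symbol alone, 10 promoters could be placed. Of these 10, 9 were low, a share close to the 89.7% of all placed promoters, and the median of the 10 was 1.46%. The 9 include Tcf3, placed on chromosome 10 with 3 of 33 reads methylated. Whether the gene of this symbol is the TCF3 of the network was not checked. Klf2, a relative of Klf4, had 1 of 127 reads methylated, Fgf4, a growth factor gene that OCT4 and SOX2 activate, 1 of 95, and Utf1, a chromatin factor of pluripotent cells, 0 of 84. The exception was Zfp42, which encodes REX1, a marker of naive pluripotent cells, with 14 of 32 reads methylated (43.8%, 28.2 to 60.7). All 9 developmental regulators that could be placed were low (median 2.66%, highest 8.57% at T), as were all 7 housekeeping genes (median 0.649%). The 7 germ cell genes ranged from 6.67% at Ddx4, a germ cell RNA helicase, to 83.6% at Dazl, an RNA-binding protein of germ cells, with a median of 29.8%, and 3 of them were low. The median over all placed promoters of other genes was 1.81%. The library holds DNA, so the identity of the sperm could not be checked on expressed markers.

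**Figure D4:**
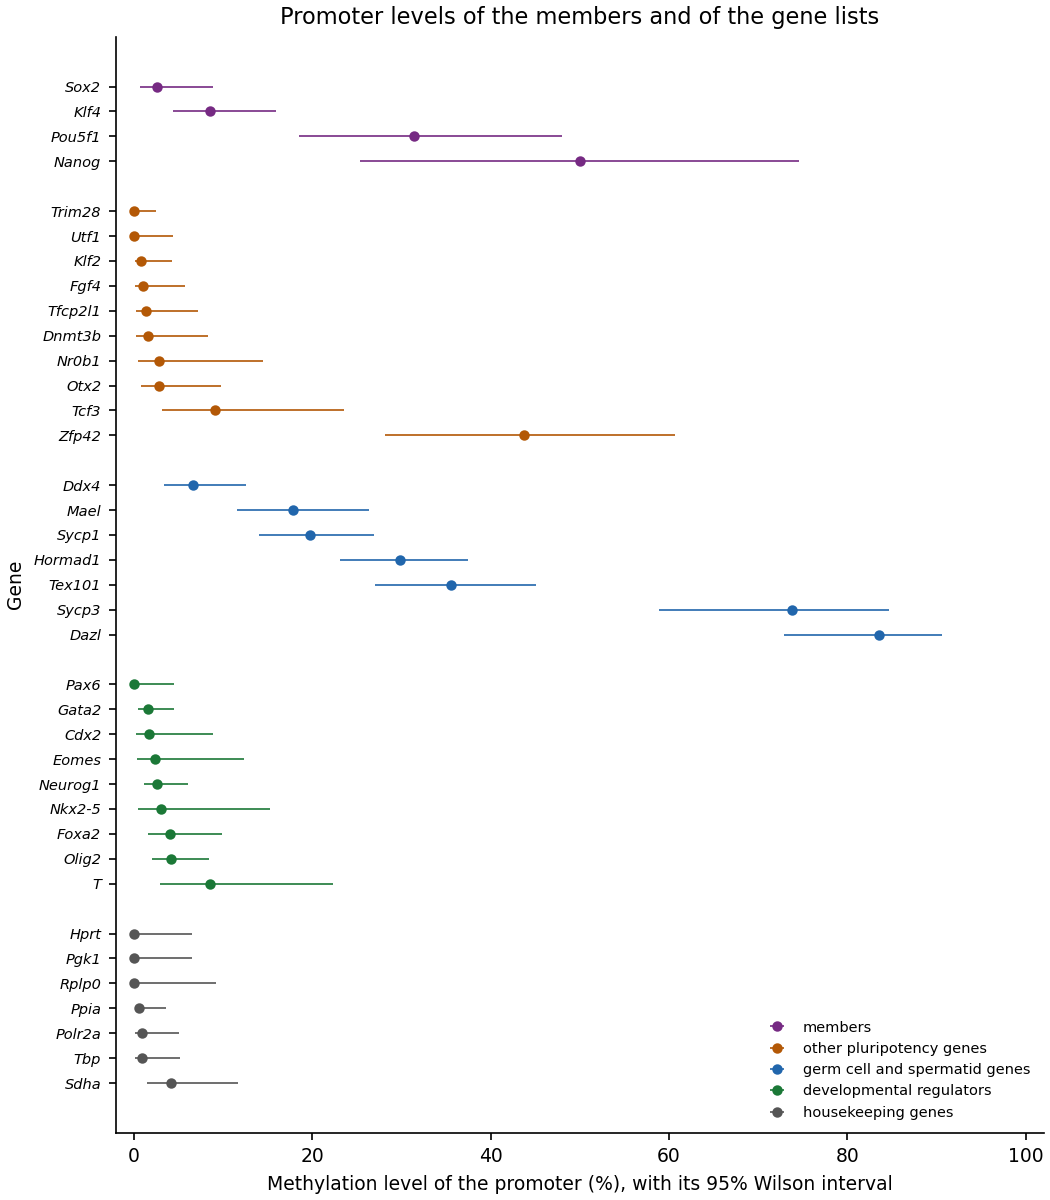
Methylation level (%) of the 300-base promoters with 95% Wilson intervals for the 4 members and for the genes of 4 lists that could be placed. Sox2, at 2.56%, sits with the developmental regulators and housekeeping genes, all under 10%. Klf4, at 8.51%, is also under 10%, but above every housekeeping gene (highest 4.23%) and close to the highest developmental regulator (8.57%). Pou5f1 and Nanog, at 31.4% and 50%, sit nearer to Zfp42 at 43.8% and to the middle of the germ cell genes. The Nanog value rests on 12 reads at 4 CpGs (25.4 to 74.6), fewer than the 8 CpGs required of the list genes. The genes are not matched for CpG number.

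The number of reads per listed CpG shows how much of each locus was sequenced from the nucleosomal DNA. It was 4.68 at Sox2, 4.33 at Klf4, 3.86 at Pou5f1 and 2.76 at Nanog. CpGs without reads are not listed, so these means lie above the true ones. Because reads per CpG rise with CpG number, each bin was compared with other autosomal bins of the same number of listed CpGs, and the reads of a locus were divided by those it would have at their medians. The ratio was 1.20 at Pou5f1 (482 reads against 401, exact Poisson 95% interval 1.097 to 1.31), 1.08 at Sox2 (1.02 to 1.13), 0.953 at Klf4 (0.904 to 1.004) and 0.906 at Nanog (0.819 to 0.9999). Against these medians Pou5f1 had somewhat more reads and Nanog somewhat fewer. Much of the Pou5f1 excess lay in the adjacent bins centred at 773 and 1273. They had 5.3 and 7.18 reads per CpG against medians of 3.3 and 3.27. Among windows of like length and CpG number, Pou5f1 lay at the 69.0th percentile of reads per CpG and Nanog at the 3.35th. The intervals of the ratios cover counting error only and are too narrow, because a single read can cover several CpGs. They therefore do not decide whether a locus departs from its background. Medians and not means were used, so the ratio of an average locus is not known. Nucleosome recovery, PCR and mapping cannot be told apart in the reads. For Sox2 the ratio was 0.999 against bins of chromosome 3 alone.

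**Figure D5:**
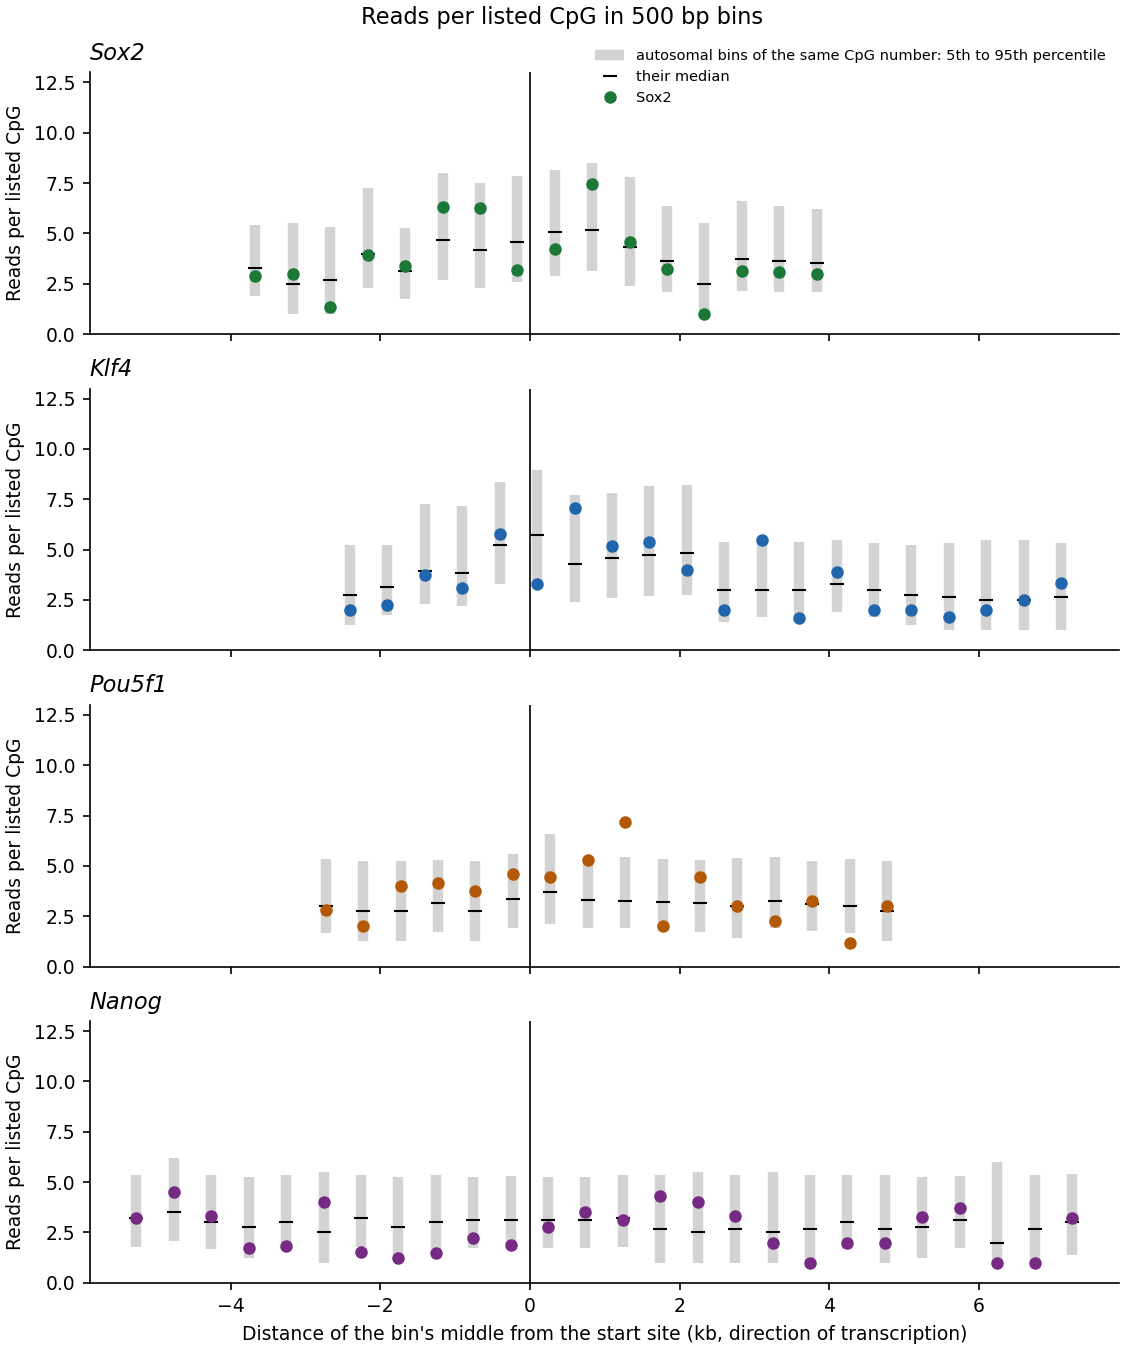
Reads per listed CpG of each 500 bp bin against the distance of its middle from the start site (kb, direction of transcription). Coloured points are the members, black ticks the median and grey bars the 5th to 95th percentile of autosomal bins with the same number of listed CpGs. The bin of Pou5f1 centred at 1273 stands above its grey bar with 7.18 reads, and the bin that holds the Klf4 start site lies near the foot of its bar with 3.31.

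Read depth was uneven inside each locus. At Pou5f1 the bin centred at 1273 had 79 reads over 11 CpGs, 7.18 per CpG against a median of 3.27, which put it at the 99.1st percentile. Its reads gathered at 8 CpGs between 1203 and 1312, with 63 reads and a level of 71.4% (59.3 to 81.1), so this much-read stretch was mostly methylated. The bin before it, centred at 773, had 5.30 reads per CpG and the 94.4th percentile. Pou5f1 also held the member bin that stood lowest for its CpG number, centred at 4273, with 7 reads over 6 CpGs (0.951st percentile). At Klf4 the bin with the most reads per CpG was the one centred at 597, with 7.04 (91.5th percentile), but the one that stood highest for its CpG number was the methylated bin centred at 3097, with 5.50 reads per CpG against a median of 3 (96.1st percentile) and a level of 93.9%. By contrast, the bin with the Klf4 start site had 3.31 against a median of 5.71 (5.63rd percentile). Sox2 had 7.46 reads per CpG in the bin centred at 833 (86.9th percentile), 6.27 in that at -667 (87.9th percentile, its highest) and 3.17 in the bin with the start site (14.1st percentile).

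At Sox2 and Klf4 the promoter itself had fewer reads than most promoters of like CpG number. The 300-base promoter had 3.12 reads per listed CpG at Sox2 (20.6th percentile of promoters with like CpG number, median 4.27) and 2.85 at Klf4 (8.13th percentile, median 4.91). At Pou5f1 it had 3.50 (44.6th percentile). Counting unlisted CpGs as 0, the values were 2.89, 2.35 and 3.18 reads per CpG. At Nanog the bin that stood lowest for its CpG number was the one centred at -2257, with 1.56 reads per CpG over 9 CpGs against a median of 3.22 (2.25th percentile), although bins of fewer CpGs had as few as 1 read per CpG. Around it, the 6 bins from -3507 to -508 had 1.86 reads per CpG at a level of 95.4%. Among windows of its length and CpG number, Nanog lay at the 3.35th percentile of reads per CpG, with a median of 3.29, whereas Pou5f1 lay at the 69.0th, Sox2 at the 34.7th and Klf4 at the 29.2nd.

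Level and read depth showed little relation among the member bins. Over the 57 bins with 10 reads, Spearman's rho between the level and the percentile of reads per CpG at the same CpG number was -0.0191, and within the loci it ran from -0.218 (Nanog, 16 bins) to 0.169 (Klf4, 14 bins). Bins of a locus share a library and some of their reads, so these are descriptions with no test.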

How the data were processed

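Raw counts were used: for every listed CpG the deposited table holds, per the file headers, its position, its total read count and its methylated read count. Bowtie and mm9 are named in the submitters' processing notes; alignment settings, duplicate handling and bisulfite conversion were not given in the sources used here. Whether positions count from 0 or 1 is not stated, so each may be off by 1 bp. Listed CpGs had a median of 3 reads.

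CpGs were pooled in 500 bp bins aligned to multiples of 500; levels needed 10 reads. Alternatives changed the bin position, read minimum, level limits, background and CpG depth. With 1 library there was no replicate and no test. Percentiles give ties their middle rank. RefSeq promoters (250 bases before and 50 after a start site, GRCm38.p6) were shifted along the listed CpGs of their window; other genes needed 8 CpGs, a unique best placement holding at least 75% of them, and an offset shared with another promoter within 1 Mb (98.2% of unique placements). The lists were searched genome-wide, all other promoters within 10 Mb on their own chromosome; the shared offset and the 10 Mb limit were chosen after seeing the data. Exons and introns were not assigned. Bins were named by lowest and highest level, most CpGs, most reads per CpG, low runs and extreme percentiles. Members, lists and tests were chosen with earlier results of these data known. Python 3.11.15, numpy 2.4.6, pandas 2.3.3, scipy 1.17.1, numba 0.67.0 and matplotlib 3.10.9 were used. Simulated data were used to test low bins, percentiles and the placement of sequences of at least 8 CpGs. The simulated levels were low or high and not intermediate. The placement of the member promoters inside their windows was not tested in this way.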

Additional observations from a re-analysis of the deposited data

How the results depend on the processing

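No paired analysis was possible because a single library was analysed. Of 37 alternative values, 31 stayed within the counting interval of the main value (for counts of bins, within 1.5 times) and 6 moved beyond it. Some of the 31 had no chance to move. Leaving out the CpGs of highest depth could not change the levels or bin counts, since the windows hold no such CpG. The number of high bins, 15, was 24 with a minimum of 5 reads per bin and 3 with a minimum of 20, as fewer bins meet the higher minimum. The 22 low bins numbered between 17 and 22 under the alternatives. The mean level of CpGs with 5 or more reads was 53.7% at Nanog, below the pooled 67.6%; the cause was not tested. With CpGs of 5 or more reads alone, the promoter level was 0% at Sox2 and 3.92% at Klf4. The ratio of reads to those expected at Sox2 fell from 1.08 to 0.999 against chromosome 3 alone, so its small excess was gone. The cause of this shift was not tested. No CpG of the Nanog promoter had 5 reads, so that alternative gave no value there. Depth limits single CpGs and the CpG-poor bins: 21 of the 78 bins had under 10 reads.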
